A study of Mus musculus with 8 samples.

Results

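The retinoic acid (RA) response of v-erbA-transfected AML12 cells was read from 4 of the 8 arrays of the series. These were the arrays whose labels named the v-erbA line. Each array of cells given 1 µM RA was paired with the control array of the same line and time, which gave 1 pair at 3 h and 1 pair at 24 h. The other 4 arrays held the same treatments and times in AML12 cells without v-erbA, and were used for comparison and for the estimate of the spread. AML12 is an established mouse hepatocyte line, derived from mice carrying a transgene for human transforming growth factor alpha. Both lines share that background. The labels named no vehicle for the controls and did not say how many clones the v-erbA line held. It was therefore 1 transfected line, in which v-erbA and any other feature of that line cannot be told apart. Every combination of line, treatment and time was 1 array of total RNA, so that neither v-erbA pair had a replicate. The titles of the v-erbA arrays were followed for the times, although the descriptions of both 24 h arrays of this line gave 3 h. The description of the AML12 array with RA at 24 h also gave 3 h, and that of its control gave no time.

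RA is the active form of vitamin A. It binds RA receptors, which sit on DNA as partners of retinoid X receptors at direct repeats of a short hexamer, and ligand binding trades corepressors for coactivators. Textbook targets include Rarb, a receptor gene, and the enzymes that break RA down or take its precursors back to retinol. v-erbA is the oncogene of an avian retrovirus, a mutated thyroid hormone receptor that does not bind hormone and represses transcription, also at elements used by RA receptors. The study asked which RA responses differ where v-erbA is present. The comparisons below describe what RA did in the cells that carried it.

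The arrays gave 1 linear signal per probe set, in arbitrary units. The medians of the 4 v-erbA arrays ran from 71.4 to 76.1 units, and the median over all 8 arrays pooled was 73.5 units. Signals below that pooled median were treated as dim. Ratios were differences of log2(signal + 19.9), a scale that shrinks differences among dim signals. Each gene was read from its brightest probe set, and 12015 genes were tested. Levels correlated across genes at r = 0.996 between the arrays of the 3 h pair and at 0.994 between those of the 24 h pair, against 0.938 to 0.942 between times, so that among these 4 arrays each was closest to its partner. Among the AML12 arrays the corresponding values were 0.993 for the 3 h pair, 0.985 for the 24 h pair and 0.931 to 0.944 between times, so that the array titled RA at 24 h was closest to the 24 h control. The hepatocyte markers Alb (9364 to 10433 units) and Ttr (10526 to 10879 units) were bright on all 4 arrays. The leukocyte, macrophage and endothelial genes Ptprc, Cd68, Pecam1, Cdh5 and Tek and the fibroblast genes Col3a1 and Pdgfrb were too dim to be tested. Other markers of these cell types, Adgre1, Csf1r, Kdr, Col1a1, Col1a2 and Acta2, exceeded the pooled median on at least 2 of the 8 arrays and were tested. In the marker lists, 4 of 10 macrophage, 3 of 11 endothelial and 9 of 16 mesenchymal genes were tested. The mesenchymal gene Vim was bright (4771 to 6302 units) in this cultured line.

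Direct repeats of the hexamers AGGTCA and AGTTCA, and with G first GGGTCA and GGTTCA, were sought with 1, 2 or 5 bases between them. Any combination counted, on both strands of the RefSeq promoter windows of 36 genes. These were the genes with the largest ratios shared by both v-erbA pairs, and a set of retinoid and marker genes. A window was found for 28 of them. Of 32851 windows in the table, 0.588% held such a repeat, and 0.0974% held one with 5 bases between the hexamers. Of the 20 genes chosen by their ratios that had a window, 0 held one. Among all 28 genes, 2 did, both with 5 bases between the hexamers. They belonged to Rarb and to Cyp26a1, the gene of the main RA-degrading hydroxylase, whose signals in v-erbA cells are given below. The 150 bases before each start site are shown, 5′ to 3′ on the gene's own strand, with the repeat in capitals (GRCm38.p6, from RefSeq). The Rarb stretch lies at chr14:16575477-16575626 on the minus strand. The Cyp26a1 stretch lies at chr19:37697658-37697807 on the plus strand, where the repeat reads on the opposite strand.
Rarb: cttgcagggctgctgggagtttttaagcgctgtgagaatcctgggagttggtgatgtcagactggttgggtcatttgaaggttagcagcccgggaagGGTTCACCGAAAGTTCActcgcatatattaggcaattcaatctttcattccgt
Cyp26a1: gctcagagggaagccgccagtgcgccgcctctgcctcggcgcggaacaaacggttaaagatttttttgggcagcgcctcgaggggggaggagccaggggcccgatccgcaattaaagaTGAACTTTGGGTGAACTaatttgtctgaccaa
The repeat lies 53 to 37 bases before the Rarb start and 32 to 16 bases before the Cyp26a1 start. A match describes letters and is not a measured site.

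RA raised Nrip1 and Gprc5b in v-erbA cells. Nrip1 encodes a corepressor, RIP140, that binds nuclear receptors holding their ligand. Its signal was 264 units in control and 968 units in RA-treated cells at 3 h, and 409 and 1142 units at 24 h. Both RA arrays lay above both controls. The ratio was 1.80 at 3 h and 1.44 at 24 h on the log2 scale, with a mean of 1.62 ± 0.10 (standard error from limma, 2 pairs; adjusted p = 0.00235). Gprc5b, an orphan receptor of a family known as RA-inducible, went from 268 to 593 units at 3 h and from 309 to 660 units at 24 h. Its groups did not overlap either. On this probe set, its brightest, the ratios of 1.09 and 1.05 were almost the same at both times, with a mean of 1.07 ± 0.08 (limma adjusted p = 0.00487). A second Gprc5b probe set, up to 301 units in v-erbA cells, had ratios of 0.60 at 3 h and 1.00 at 24 h.

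No other gene passed. The paired limma fit called 2 of 12015 genes higher with RA (0.0166%) and 0 lower (0.0%), while 447 had an unadjusted p under 0.05. The spread in that fit was the disagreement between the 3 h and the 24 h ratio, taken over both lines. In AML12 cells the same fit called 46 genes higher (0.383%) and 22 lower (0.183%). For the v-erbA response, without the AML12 3 h pair it called 96 genes, without the AML12 24 h pair 99, and without the v-erbA 3 h pair 16. The 4 v-erbA arrays taken alone gave 78 higher genes (0.649%) and 25 lower (0.208%), or 0.857% in all, both genes among them (1 residual degree of freedom, 917 with an unadjusted p under 0.05). With time as an additive term in place of the pairs it called 0, where 400 genes had an unadjusted p under 0.05 and the lowest adjusted p was 0.0550. Nrip1 and Gprc5b also missed the threshold when all probe sets of a gene were averaged (0.115 and 0.451) and without the mean-variance trend (0.124 for both). Verbs of change are kept here for these 2 genes, and all other values stand as differences between single arrays.

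The response was narrow. At 3 h, 6 genes were at least 2-fold higher with RA (0.0499% of those tested) and 1 was at least 2-fold lower (0.00832%). At 24 h, 10 were at least 2-fold higher (0.0832%) and 8 lower (0.0666%). At 1.5-fold the counts were 46 higher (0.383%) and 20 lower (0.166%) at 3 h, and 63 higher (0.524%) and 68 lower (0.566%) at 24 h. In AML12 cells the 2-fold counts were 16 higher (0.133%) and 7 lower (0.0583%) at 3 h, and 73 higher (0.608%) and 53 lower (0.441%) at 24 h. The ratio stayed under 1.5-fold for 99.2% of genes at 3 h and for 98.7% at 24 h, and the ratios had an SD of 0.15 and 0.18 on the log2 scale. The SD was larger for dim genes: it was 0.28 in both pairs for genes whose mean level was dim, and 0.08 and 0.12 for those above a log2 level of 10. Across all genes the 3 h and 24 h ratios correlated at r = 0.14, so most of the small ratios at one time told little of those at the other. The plot of the 2 ratios against each other shows a dense centre with a short list of genes outside it.

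**Figure D1:**
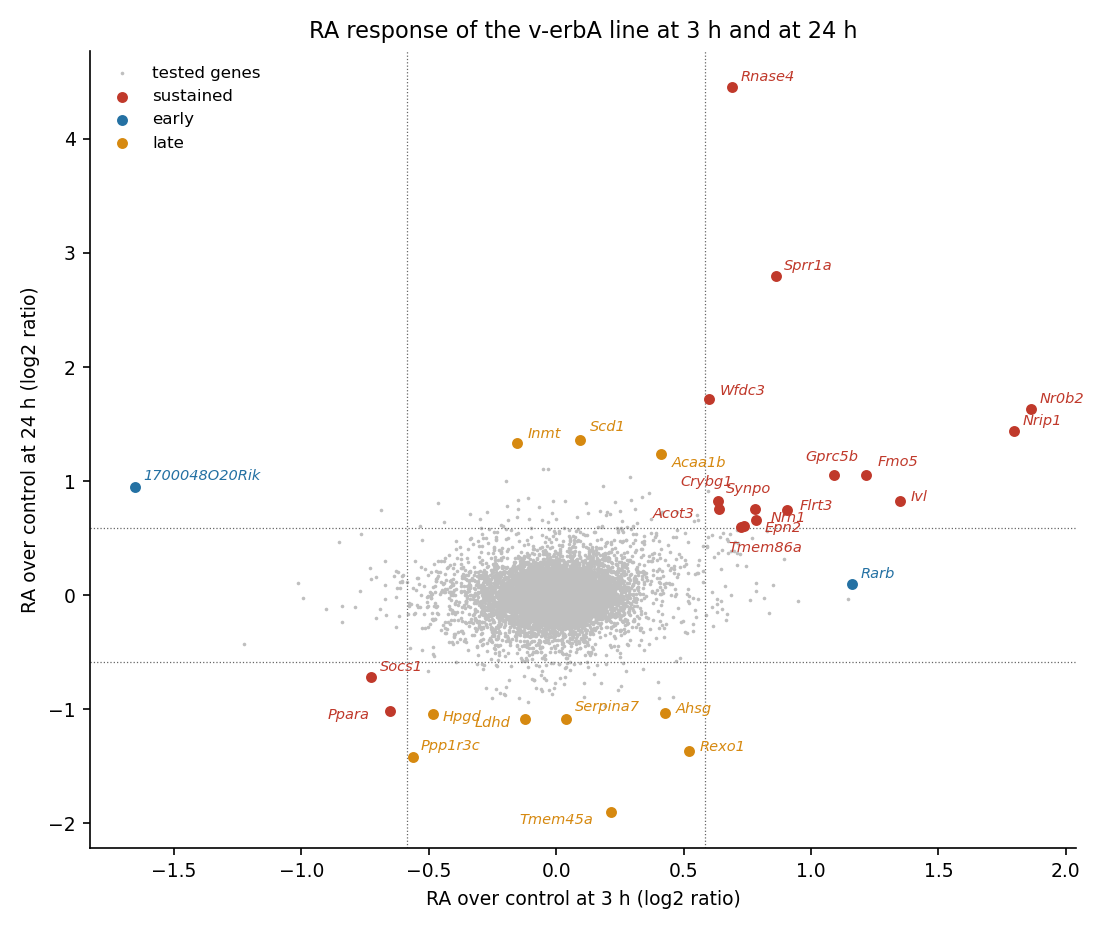
Log2 ratio of RA over control in v-erbA cells at 3 h (horizontal) and at 24 h (vertical), 1 point for each of 12015 tested genes, with dotted lines at 1.5-fold. The 15 genes at the upper right and the 2 at the lower left passed 1.5-fold the same way at both times; Rarb lay to the right near the horizontal axis, and Scd1, Inmt and Acaa1b above the centre.

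Genes were sorted by time. Those at least 1.5-fold the same way in both pairs were called sustained: 15 were higher (0.125% of genes tested) and 2 lower (0.0166%). Those at least 2-fold at 24 h and under 1.5-fold the same way at 3 h were called late, with 3 higher and 7 lower. Those at least 2-fold at 3 h and under 1.5-fold the same way at 24 h were called early, with 1 higher and 1 lower. The sustained higher genes are described first, by what their products do.

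Nr0b2, or SHP, is a nuclear receptor without a DNA-binding domain that represses bile acid synthesis. It was at 23.6 units in control and 139 units with RA at 3 h, and at 34.4 and 148 units at 24 h. Both controls were dim and both RA arrays were above the pooled median. Against that median the RA level was at least 1.70-fold higher at 3 h and at least 1.80-fold at 24 h, and the measured mean ratio was 1.75 ± 0.19 (limma adjusted p = 0.0502). Of the 16 tested genes of bile acid handling, 5 were higher and 7 lower in both pairs (31.3% and 43.8%, against 25.9% and 24.4% of all genes). Slc51b, a subunit of the exporter that moves bile acids to the blood, had signals of 87.5 and 156 units at 3 h and 82.7 and 121 units at 24 h, with ratios of 0.72 and 0.46. The export pump gene Abcc2 had ratios of 0.30 and 0.46. The synthesis enzymes Cyp7a1 (−0.18 and −0.15) and Cyp8b1 (−0.21 and −0.19) had signals between 72.1 and 96.1 units, close to the pooled median. Nr1h4, the bile acid receptor FXR, had ratios of −0.11 and −0.35.

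Ivl and Sprr1a, of the cornified envelope of squamous epithelia, were also in the sustained class. Ivl encodes involucrin, a scaffold of the cornified envelope, and read 207 and 559 units at 3 h and 235 and 432 units at 24 h. Both RA arrays were above both controls, with ratios of 1.35 and 0.82 (limma adjusted p = 0.0662). Sprr1a, a small proline-rich precursor of the same envelope, read 272 and 511 units at 3 h and 212 and 1588 units at 24 h. Its ratio of 0.86 at 3 h was followed by 2.80 at 24 h, and with this disagreement the limma adjusted p was 0.548. Ivl and Sprr1a are neighbours in the RefSeq order of named genes on the array. Wfdc3, of the whey acidic protein family, shared that timing, with 297 and 461 units at 3 h and 372 and 1271 units at 24 h. Fmo5, a flavin monooxygenase, read 86.0 and 226 units at 3 h and 147 and 328 units at 24 h (ratios 1.21 and 1.06, limma adjusted p = 0.0502). Flrt3, a membrane protein with leucine-rich repeats, had ratios of 0.91 and 0.75, and the endocytic adaptor Epn2 0.74 and 0.61. A list of 24 squamous envelope and epithelial genes held Fmo5, Wfdc3, Epn2 and Flrt3 too, which are not envelope genes and were put there with earlier results of these arrays known. Of its 13 tested genes 7 were higher in both pairs (53.8%, against 25.9% of all genes), 6 of them at least 1.5-fold. Because of that choice the count and the median describe the list only. The other tested members, among them Krt7, Krt15, Upk2, Sprr2d and Lcn2, stayed under 1.5-fold at both times.

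Rnase4, a secreted ribonuclease, gave the largest ratio in these cells. It read 72.8 and 130 units at 3 h. At 24 h the control was at 16.6 units and the RA array at 781 units. The RA level at 24 h was at least 8.58-fold above the pooled median, and the measured ratios were 0.69 and 4.46. With 2 ratios so far apart, the limma adjusted p was 1.00. Ang, its neighbour, was dim on both 3 h arrays (10.2 and 24.4 units, ratio 0.55) and read 274 and 315 units at 24 h (ratio 0.19). In AML12 the Ang ratios were −0.06 and −0.09. Among 74 tested genes within 2 places of a sustained, early or late gene, 2 were at least 1.5-fold the same way in both pairs. The share over all genes was 0.125% higher and 0.0166% lower. These 2 were Ivl and Sprr1a, each counted as the neighbour of the other. Both are sustained genes, chosen by that same rule, so they passed by their choice and the count tells nothing of neighbours.

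The other sustained higher genes were Synpo, an actin-binding protein (0.78 and 0.75), Nrn1, neuritin (0.78 and 0.66), Crybg1 (0.63 and 0.83), Tmem86a (0.72 and 0.60) and Acot3. Acot3 encodes an acyl-CoA thioesterase, an enzyme that releases fatty acids from coenzyme A. Its family holds textbook targets of the receptor PPAR alpha. Its signal was 148 and 241 units at 3 h and 152 and 269 units at 24 h. Acot1 (0.23 and 0.41), Acot2 (0.37 and 0.66) and Acot4 (0.65 and 0.40) were also higher in both pairs. These genes are close copies, and probe sets may share signal between them; in the RefSeq order Acot1 and Acot4 lie within 2 places of Acot3.

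**Figure D2:**
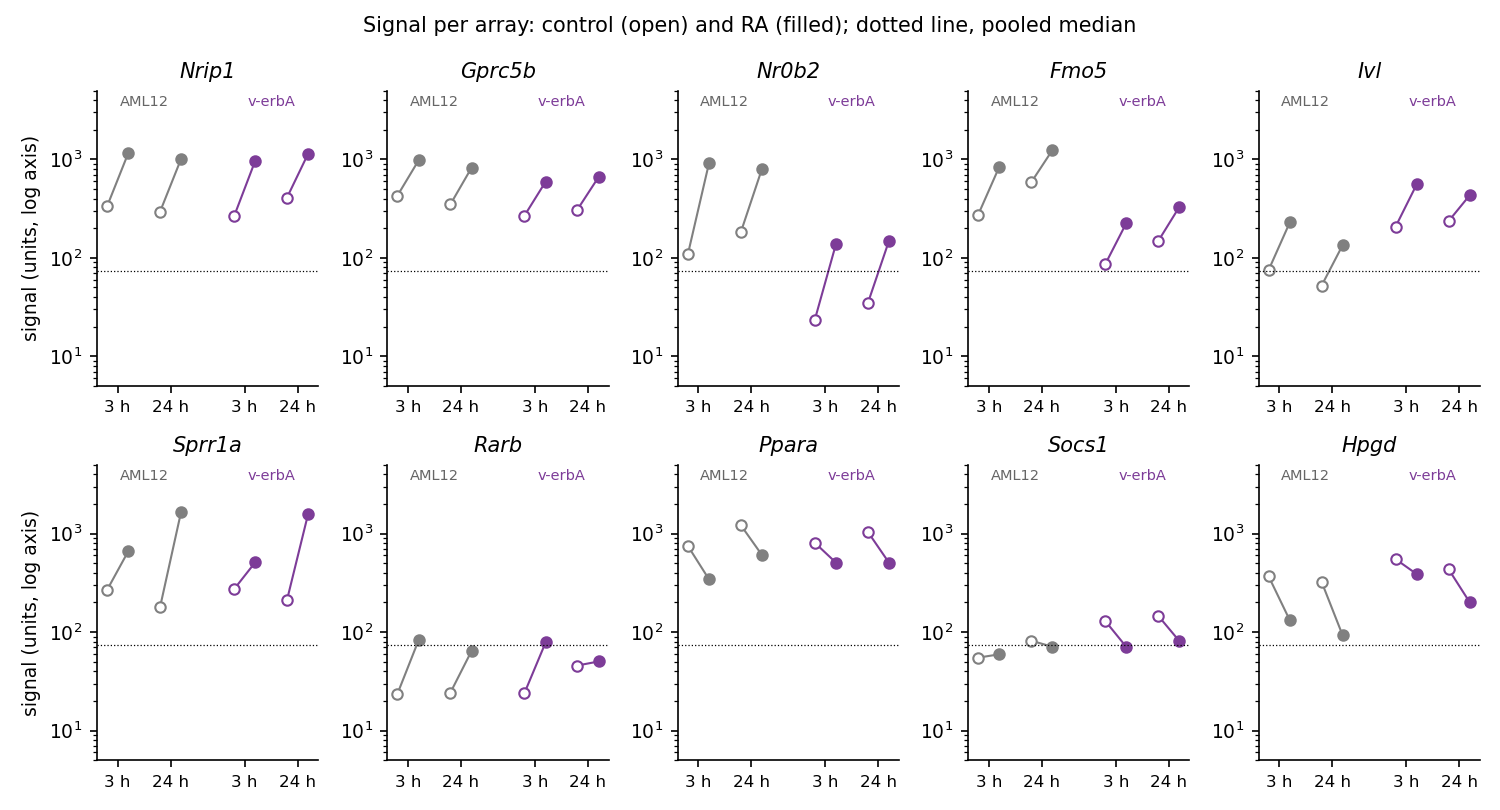
Signal of 10 genes on each array on a log axis, for control (open) and RA (filled) at 3 h and 24 h, AML12 in grey and v-erbA in purple, with the pooled median of 73.5 units dotted. In v-erbA cells the RA point is higher at both times for Nrip1, Gprc5b, Nr0b2, Fmo5, Ivl and Sprr1a and lower for Ppara, Socs1 and Hpgd, while Rarb separates at 3 h only.

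Ppara and Socs1 were the 2 sustained lower genes. Ppara encodes the receptor that senses fatty acids and drives their oxidation in liver. Its signal was 806 units in control and 506 units with RA at 3 h, and 1044 and 507 units at 24 h. Both RA arrays were below both controls and nearly equal to each other. The ratios were −0.65 and −1.01, with a mean of −0.83 ± 0.10 (limma adjusted p = 0.0502). Of the 17 tested genes of PPAR alpha and fatty acid oxidation, 10 were higher and 2 lower in both pairs (58.8% and 11.8%, against 25.9% and 24.4% of all genes). The kinase gene Pdk4, which limits glucose oxidation, had ratios of 0.47 and 0.51 beside the thioesterases. The oxidation enzymes Cpt1a, Cpt2, Acadl and Acadvl stayed between −0.15 and 0.07.

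Socs1, an inhibitor of cytokine signalling through JAK kinases, read 130 and 70.5 units at 3 h and 147 and 81.1 units at 24 h. Both RA arrays were near the pooled median and below both controls. Its ratios of −0.73 and −0.72 were alike (limma adjusted p = 0.238). In AML12 cells Socs1 was itself near the median, and its ratios there were 0.08 and −0.16.

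The next lower genes were smaller in size and alike at both times. Plpp3, a lipid phosphate phosphatase, read 1167 and 830 units at 3 h and 1671 and 1150 units at 24 h, with ratios of −0.48 and −0.53 (limma adjusted p = 0.0502). Zbtb16, or PLZF, a transcription repressor, had ratios of −0.41 and −0.43, though its control signal differed between times (852 and 2343 units). C1qtnf6, a secreted protein of the C1q family, had ratios of −0.48 and −0.52, and Gskip, which binds a glycogen synthase kinase, −0.39 and −0.59. The further probe sets of Gskip reached signals above the pooled median, but their mean ratios were only −0.07 to −0.06. Rap1gapos (−0.58 and −0.47), Maneal (−0.36 and −0.39), Pvalb, a calcium-binding protein (−0.35 and −0.41), and 4930480K23Rik (−0.40 and −0.36) had signals between 47.2 and 142 units.

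Other probe sets of the same genes bore on these values. The 12 higher genes with the largest ratios shared by both pairs, ranked by the smaller of the 2, had 11 further probe sets. Of these, 11 of 11 had a positive mean ratio, 9 of them above the pooled median with a median of 0.86. Nrip1 had 5 further probe sets: 3 had mean ratios of 1.21 to 1.48, and the other 2 had 0.18 and 0.01. For the 12 lower genes, 11 of 12 further probe sets had a negative mean ratio. The 9 above the pooled median had a median of −0.30, and 1 passed 1.5-fold, a probe set of Ppara at −0.99.

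Rarb was the 1 gene in the early class that was higher. It encodes an RA receptor and carries the repeat printed above. Its control was at 24.0 units and its RA array at 78.5 units at 3 h, against 45.7 and 50.2 units at 24 h. At 3 h the RA level was at least 1.05-fold above the pooled median, and the measured ratio was 1.16. At 24 h both arrays were dim and no fold is given. In AML12 cells Rarb was at 23.6 and 82.7 units at 3 h and at 24.2 and 64.2 units at 24 h. The RA array was above its control at both times there, but both 24 h arrays were dim in AML12 too. The 1 lower gene of the class was 1700048O20Rik, at 115 and 22.9 units at 3 h and 150 and 308 units at 24 h, a pair of ratios of opposite sign. The 8 largest lower ratios of the 3 h pair included Bsn, Ugt8a, Haao, Adat3, Pde3a and Trim72. Of 6 further probe sets of these 8 genes, 2 had the same sign and 0 were above the pooled median.

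Of the RA-induced target genes in the list, 13 of 20 were tested and 10 of these were higher in both v-erbA pairs, or 76.9% against 25.9% of all genes. The list held both called genes, Nrip1 and Gprc5b, and was drawn up with earlier results of these arrays known. Its count therefore describes the list only. The list's median ratio was 0.13 at 3 h and 0.10 at 24 h, since most members differed little from their control. Dhrs3, which returns retinaldehyde to retinol, read 769 and 1259 units at 3 h and 1390 and 1821 units at 24 h, with ratios of 0.70 and 0.38. The homeobox gene Meis1 had ratios of 0.46 and 0.23, the transglutaminase Tgm2 0.06 and 0.19, and the RA-binding protein gene Crabp2 0.27 and 0.06, with the 24 h arrays of Crabp2 at 3.11 and 4.02 units. Further probe sets of Meis1 differed from its brightest. A probe set up to 154 units had −0.11 and −0.15, and another, up to 85.6 units, had −0.17 and 0.32. Cyp26a1 stood at 61.8 and 65.1 units at 3 h and 74.2 and 74.7 units at 24 h, so that control and RA hardly differed. Its relative Cyp26b1 had ratios of −0.20 and 0.03. In AML12 cells the ratios were 0.52 and 0.32 for Cyp26a1 and 0.38 and 0.53 for Cyp26b1. The test of the difference between lines for Cyp26a1 gave −0.39 ± 0.21 (limma, unadjusted p = 0.104, adjusted p = 1.00). Stra6, the retinol transporter gene, was too dim to be tested.

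The genes that make, bind or receive retinoids differed less. Rdh10, which oxidises retinol toward RA, read 387 and 496 units at 3 h and 383 and 559 units at 24 h (ratios 0.35 and 0.52). It was the 1 member of the 13 tested genes of retinoid metabolism that was higher in both pairs (7.69%, against 25.9% of all genes). In both pairs 3 were lower (23.1%, against 24.4% of all genes). Aldh1a1, an enzyme of the last step to RA, was among the brightest genes (8678 to 9039 units) with ratios of 0.01 and −0.01. Among receptors, Rxra (−0.05 and −0.09), Rxrb (−0.11 and 0.18) and Thra (0.10 and −0.02) stayed close to their controls, Rarg had ratios of opposite sign (−0.37 and 0.36), and Thrb was too dim to be tested. Of 14 tested coregulators, Nrip1 was the 1 that passed the test. The coactivator gene Ppargc1b had ratios of 0.03 and −0.51, and Ncoa1, Ncoa2, Crebbp and Hdac3 stayed between −0.05 and 0.09.

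The late higher genes were Scd1, Acaa1b and Inmt. Scd1, the desaturase that makes monounsaturated fatty acids, read 418 and 446 units at 3 h and 397 and 1052 units at 24 h (ratios 0.09 and 1.36). A second probe set of Scd1 had ratios of 0.13 and 0.31. Acaa1b, a peroxisomal thiolase, read 103 and 143 units at 3 h and 101 and 263 units at 24 h. Inmt, a methyltransferase, read 521 and 466 units at 3 h and 355 and 928 units at 24 h, while its 24 h ratio in AML12 was −0.40. Of 19 tested genes of fatty acid and triglyceride synthesis, 11 were higher and 0 lower in both v-erbA pairs (57.9% and 0.00%, against 25.9% and 24.4% of all genes), with a median ratio of 0.05 at 3 h and 0.12 at 24 h. Of 15 tested genes of cholesterol synthesis, 7 were higher at 3 h and 14 at 24 h, with a median of 0.14 at 24 h. Over all 12015 genes, 6223 were higher at 3 h and 5971 at 24 h. Scd1 at 24 h was the 1 member of these lists past 1.5-fold.

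On the lower side the late genes were Hpgd, Ppp1r3c, Ldhd, Serpina7, Ahsg, Tmem45a and Rexo1. Hpgd, the enzyme that inactivates prostaglandins, read 550 and 387 units at 3 h and 436 and 201 units at 24 h, with ratios of −0.48 and −1.05. Slco2a1, the transporter that carries prostaglandins into the cell, had ratios of 0.03 and −0.78. Ppp1r3c, which targets a phosphatase to glycogen, read 189 and 122 units at 3 h and 279 and 92.1 units at 24 h, with ratios of −0.56 and −1.42. A second probe set of Ppp1r3c, up to 148 units, had ratios of −0.07 and −0.52, under 1.5-fold at both times. Ldhd, a D-lactate dehydrogenase, had −0.12 and −1.09, and Serpina7, the thyroxine carrier of plasma, 0.04 and −1.09. Rexo1 read 240 and 81.1 units at 24 h, but its other probe sets had 24 h ratios of 0.00 and 0.01.

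Apoa1, Serpina1c and Ahsg, which encode secreted hepatocyte proteins, were lower with RA at 24 h, where their control was brighter than at 3 h. Others, such as Fgg (0.40 and 0.12), were not lower then. Ttr had ratios of −0.02 and 0.01 on its brightest probe set, while its other bright probe sets had 24 h ratios of −0.13 to −0.09. Apoa1, a carrier protein of plasma cholesterol, read 200 and 282 units at 3 h and 742 and 389 units at 24 h, so that the RA array of 24 h was above both arrays of 3 h and below its own control. Serpina1c, of the alpha-1-antitrypsin family, read 620 and 711 units at 3 h and 1961 and 989 units at 24 h. Ahsg, or fetuin A, read 40.2 and 61.0 units at 3 h and 126 and 51.3 units at 24 h. Of the 23 tested hepatocyte markers, 15 were higher at 3 h and 7 at 24 h, against 6223 and 5971 of all 12015 genes. At 24 h, 6 of the 23 were at least 1.5-fold lower, against 0.566% of all genes. The medians of the list were 0.04 and −0.15. Cps1, the entry enzyme of the urea cycle, ran the other way, with 203 and 253 units at 3 h and 377 and 689 units at 24 h. Hnf4a, a transcription factor that sustains hepatocyte identity, had ratios of −0.29 and −0.33. In AML12 the marker median at 24 h was −0.76, and the cell cycle list, at a median of 0.10 in v-erbA cells, was at 0.81 in AML12. Both lists stood apart in the AML12 24 h pair, whose RA array is the one described as 3 h, and their part in the differences between lines was not tested.

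**Figure D3:**
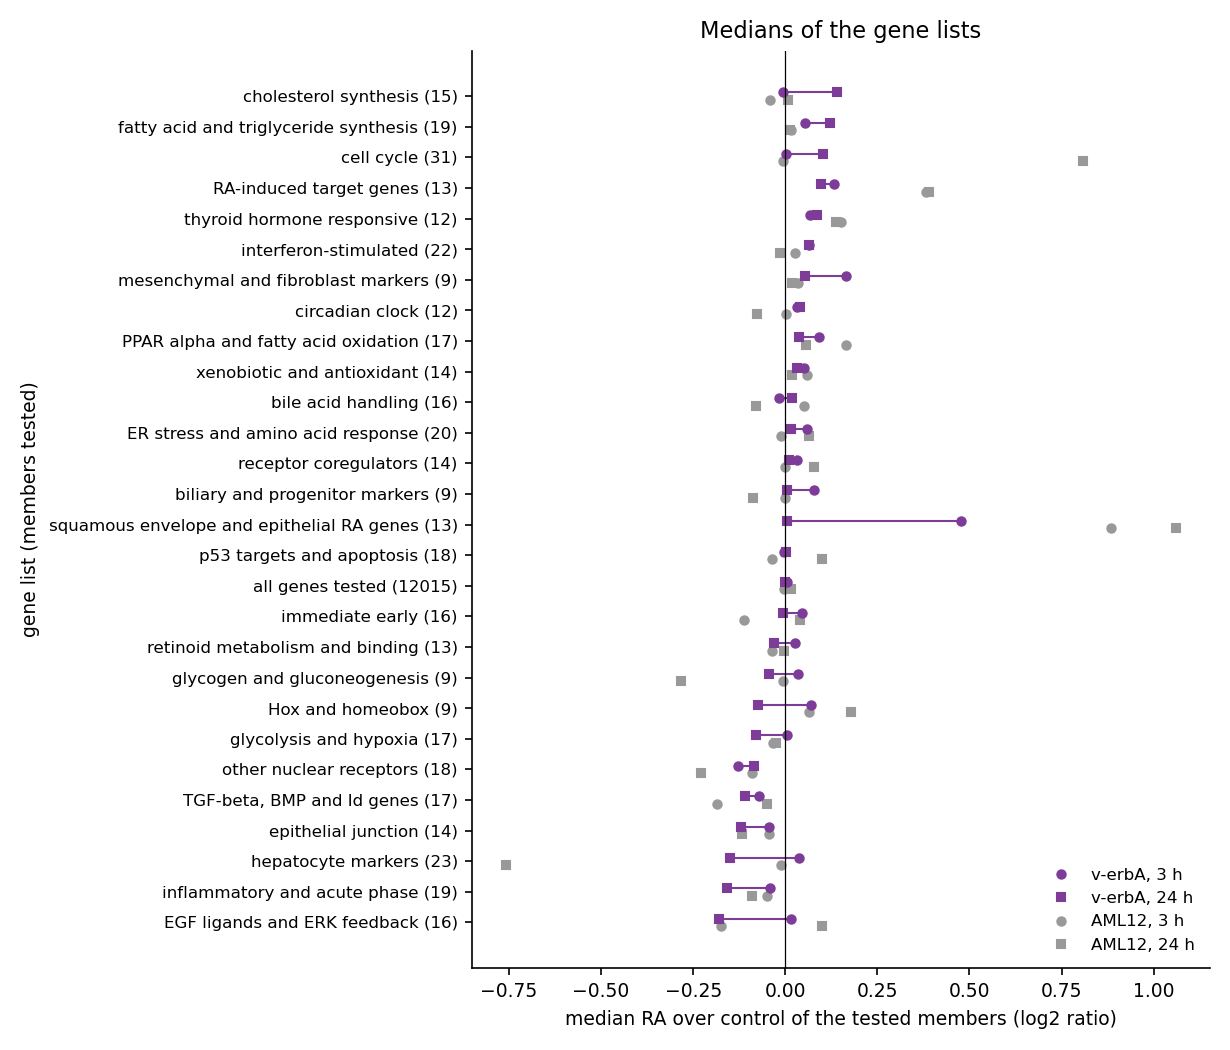
Median log2 ratio of RA over control for each gene list with at least 8 tested members (number in brackets), at 3 h (circles) and 24 h (squares), v-erbA in purple and AML12 in grey. The v-erbA medians lie near 0 for nearly all lists. The squamous and epithelial list, which holds genes known to respond, stands apart at 3 h in v-erbA cells (0.48) and at both times in AML12 (0.88 and 1.06), and in AML12 the cell cycle (0.81) and hepatocyte (−0.76) lists stand apart at 24 h.

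Lists of growth and junction genes gave small ratios. Of 16 tested EGF ligands and ERK feedback genes, 7 were lower in both v-erbA pairs (43.8%, against 24.4% of all genes), with a median of −0.18 at 24 h. They included Rgs2, a brake on G protein signalling (1789 and 1517 units at 3 h, 2208 and 1240 units at 24 h), and Egfr (−0.18 and −0.21). Among immediate early genes, Egr1 had −0.28 and −0.62. Of 17 tested TGF-beta, BMP and Id genes, 9 were lower in both pairs (52.9%, against the same 24.4%). Id3, an inhibitor of helix-loop-helix factors, was an exception at 0.31 and 0.40. Of 7 tested Wnt targets, 5 were lower in both (71.4%, against 24.4%), among them Ccn4 (−0.40 and −0.34), Rnf43 and Nkd1. A further probe set of Nkd1, up to 230 units, had ratios of 0.37 and 0.18. Of 14 tested genes of epithelial junctions, 9 were lower in both (64.3%, against 24.4%), and at 24 h Cldn2 (1799 and 955 units) and Gjb1 (718 and 420 units) were the 2 past 1.5-fold. Sox9, a factor of biliary and progenitor cells, had ratios of 0.68 and 0.39, but a bright second probe set had 0.37 and −0.14 and another 0.30 and 0.49, while Krt19 and Epcam stayed between −0.03 and 0.18.

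The AML12 arrays, which share no array with the v-erbA pairs, gave a separate measurement of the same genes. All 15 sustained higher genes of the v-erbA line were also higher with RA in both AML12 pairs, against 26.2% of all genes, and 11 passed 1.5-fold in both. Their median mean ratio was 1.07 in v-erbA and 1.24 in AML12, and 2 of the 15, Rnase4 and Nrn1, were larger in v-erbA. This stood although the genes were chosen for their size in the v-erbA line. Of the 78 higher genes called on the v-erbA arrays alone, 73 were higher in both AML12 pairs (93.6%) with medians of 0.53 and 0.57 in v-erbA and AML12, and of the 25 lower genes 24 were lower in both (96.0%, against 24.3% of all genes).

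Chosen from the AML12 side, the picture was less even. Of 29 genes at least 1.5-fold higher in both AML12 pairs (0.241%), 26 were higher in both v-erbA pairs (89.7%, against 25.9% of all genes). Of the 29, 11 passed 1.5-fold in both, and the medians were 1.05 in AML12 and 0.61 in v-erbA. Of the 14 genes at least 1.5-fold lower in both AML12 pairs (0.117%), 8 were lower in both v-erbA pairs (57.1%, against 24.4% of all genes). Of the 14, 1 passed 1.5-fold in both, and 2 were higher in both, against 25.9% of all genes. Their medians were −0.74 in AML12 and −0.20 in v-erbA, and 0 of the 14 had the larger ratio in v-erbA cells. Choosing genes by one line favours large values in that line.

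**Figure D4:**
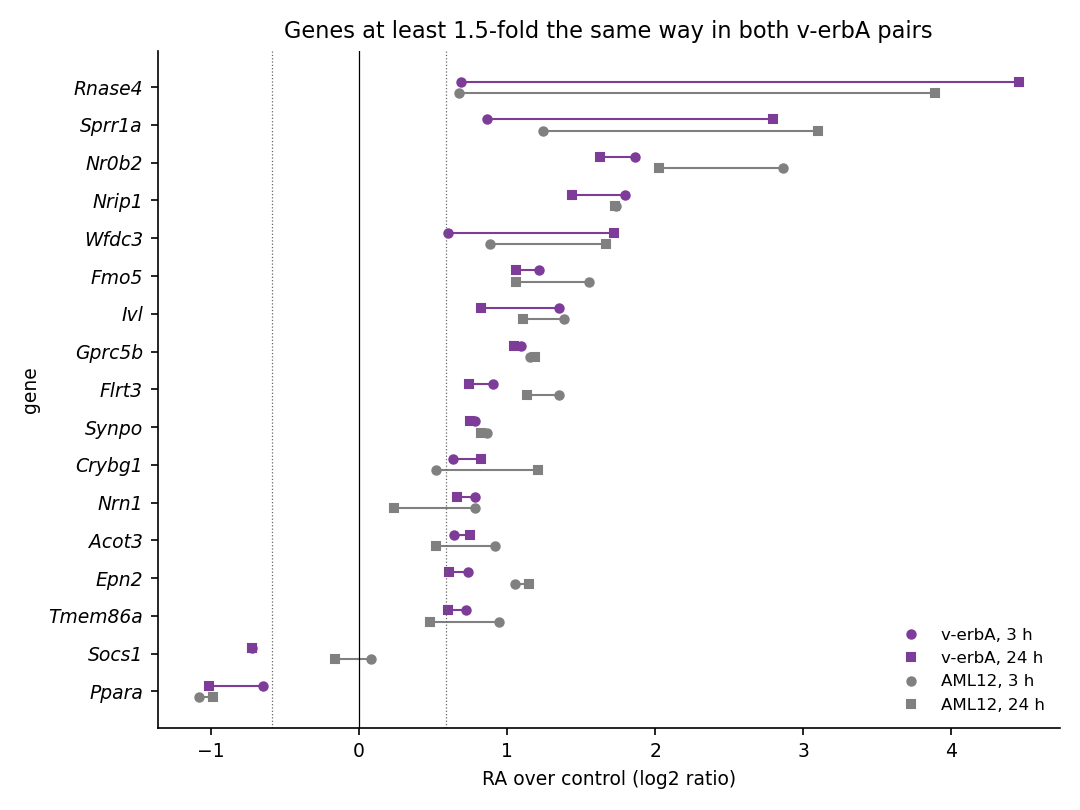
Log2 ratio of RA over control at 3 h (circles) and 24 h (squares) for the 17 genes at least 1.5-fold the same way in both v-erbA pairs, in v-erbA (purple) and AML12 (grey); dotted lines mark 1.5-fold. The 15 higher genes lie to the right of 0 in all 4 pairs, and Socs1 is near 0 in AML12.

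The difference between the lines was tested gene by gene in the same fit. It called 0 of 12015 genes (0.0%), while 253 had an unadjusted p under 0.05 and no adjusted p was below 1.00. Without the AML12 3 h pair it called 273 genes and without the AML12 24 h pair 2. For Nrip1 the difference was −0.11 ± 0.14 and for Gprc5b −0.10 ± 0.11 (v-erbA minus AML12, limma, standard errors), each no larger than its standard error. These values hold for the brightest probe sets. The second Gprc5b probe set had ratios of 0.60 and 1.00 in v-erbA and of 0.78 and 2.69 in AML12. For Nr0b2 the difference was −0.70 ± 0.27 (unadjusted p = 0.0303) and for Slc51b −0.73 ± 0.18 (unadjusted p = 0.00388), both smaller in v-erbA, and neither passed the adjustment (1.00). For Hpgd it was 0.72 ± 0.20, a less negative ratio in v-erbA (unadjusted p = 0.00744, adjusted p = 1.00). The Nr0b2 controls were dim in v-erbA cells (23.6 and 34.4 units) but not in AML12 (108 and 181 units). The offset before log2 shrinks ratios that start from dim signals. With the offset at the 10th percentile the mean Nr0b2 ratio in v-erbA cells was 1.97 in place of 1.75. The part of this scale in the Nr0b2 difference was not tested.

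The genes with the smallest unadjusted p for that difference had ratios between −0.42 and 0.19 in v-erbA cells. Upk1a, a uroplakin of the urothelium, read 94.8 and 100.3 units at 3 h and 70.0 and 67.5 units at 24 h in v-erbA cells, while its mean ratio in AML12 was 1.63. Its difference of −1.61 ± 0.22 had an unadjusted p of 9.1e-05 (limma adjusted p = 1.00). Mgll, which splits monoacylglycerols, had ratios of 0.13 and 0.14 in v-erbA and of −1.36 and −0.66 in AML12, but its 3 further probe sets, dim in v-erbA cells, had AML12 ratios between −0.25 and 0.27. Lpcat1, a lysophospholipid acyltransferase, had 0.11 and −0.22 against 1.02 and 1.91, and the 2 further probe sets above the pooled median had AML12 ratios of 0.01 and 0.19 and of 0.04 and 0.43. The retrovirus restriction gene Fv1 had 0.14 and 0.15 against −0.61 and −0.72. Tfrc, the transferrin receptor, was bright in v-erbA cells (2363 to 2754 units) with ratios of 0.19 and 0.12 against 0.47 and 0.61. Zfr2 (−0.42 and 0.13), Lgals2 (−0.10 and −0.14) and Tcf7l1 (−0.15 and 0.19) completed the set. A second probe set of Lgals2, up to 149 units, had ratios of −0.10 and −0.70 in v-erbA cells and of −0.09 and −1.14 in AML12.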

How the data were processed

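Total RNA of 8 samples, biotin-labelled per the labels' protocols, was hybridised to Affymetrix arrays. The deposited table gave 1 linear intensity per probe set and array, for 45037 probe sets, of which 45036 had a value on every array. How the authors summarised, background-corrected or scaled these intensities was not given in the sources used here, so that its effect on the ratios is unknown. Of these 45036, 34944 named 1 gene in the platform annotation, 932 several and 9160 none. Symbols were checked against the RefSeq table (34740 gene IDs found). A gene took its probe set with the highest mean, which left 18192 genes. Of these, 12015 exceeded the pooled median on at least 2 arrays and were tested. The offset before log2 was the 20th percentile of all intensities.

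limma 3.58.1 (R 4.3.3) fitted a block for each pair of line and time and an RA effect per line to all 8 arrays, with 2 residual degrees of freedom, a mean-variance trend and Benjamini-Hochberg adjustment over all tested genes (threshold 0.05). The script was tested on simulated data. Single pairs have no test. They were called at 2-fold where the brighter array exceeded the pooled median, and bounds ("at least") set a dim array at that median. Because the labels name no separate cultures as replicates, p-values measure the disagreement between the times. The number of arrays limits the precision. Tables used pandas 2.3.3, numpy 2.4.6 and matplotlib 3.10.9.

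Genes named were the 12 largest per direction with the same sign in both pairs (called genes first, then by the smaller of the 2 ratios), the 8 largest per direction in each pair, the 8 smallest p-values for the difference between lines, a fixed set of retinoid and marker genes, and up to 4 members per list with the largest mean ratio. Members of lists, of the time classes or of a choice made in AML12 that are named beyond this rule, and neighbours such as Ang, were chosen after their values were seen. The members and the 32 lists were chosen with earlier results of these data known.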

Additional observations from a re-analysis of the deposited data

Results flagged for a closer look

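Trim72 had ratios of one sign in both v-erbA pairs (−0.71 and −0.21) and of the other in both AML12 pairs (0.59 and 0.07). The difference, v-erbA minus AML12, was −0.79 (limma, unadjusted p = 0.0263, adjusted p = 1.00), and the 24 h signals of v-erbA cells were 16.7 and 11.8 units. Fv1 was likewise higher in both v-erbA pairs and lower in both AML12 pairs, with a difference of 0.81 (unadjusted p = 0.00024, limma adjusted p = 1.00). Mgll had the same pattern, with a difference of 1.14 (unadjusted p = 0.00064, limma adjusted p = 1.00), and its other probe sets, dim in v-erbA cells, had ratios between −0.25 and 0.28.

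In 2 flagged genes the sign turned with time in both lines, and other genes shared this. Over all genes, 25.9% were higher and 24.4% lower in both v-erbA pairs. In AML12 these shares were 26.2% and 24.3%, so that a turn of sign within a line was common. Ahsg was higher with RA in both 3 h pairs (0.43 in v-erbA, 0.18 in AML12) and lower in both 24 h pairs (−1.04 and −2.04), a mean difference of −1.84, 24 h minus 3 h. Alb was at 0.04 and 0.01 at 3 h and at −0.15 and −0.16 at 24 h, a mean difference of −0.18. These differences between times were not tested.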

How the results depend on the processing

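The count of 2 genes called with RA in v-erbA cells was 2 after quantile normalization and with the offset at the pooled median, and 3 with the offset at the 10th percentile. It was 32 (30 higher, 2 lower) with arrays centred on their medians, 13 without the dim filter, 7 with the filter at 4 arrays, 113 with all 2-way interactions and 103 on the 4 v-erbA arrays alone. It was 0 with the mean over probe sets (428 at an unadjusted p under 0.05), with additive time (400) and without the trend (480). Leaving out each array with its pair gave 3 to 99 genes, both called genes among them each time: 96 without the AML12 3 h pair, 99 without the AML12 24 h pair, 16 without the v-erbA 3 h pair and 3 without the v-erbA 24 h pair. The count for the difference between lines was 0, 4 with all 2-way interactions, and 0 to 273 with a pair left out. The 2-fold count at 3 h, 7 in all, was 3 with the offset at the pooled median and 4 with the mean over probe sets. The count at 24 h, 18 in all, was 10 under each of those settings. Of the values of single genes under these settings, 316 kept their direction and side of the threshold, 132 passed it, 6 (Nrip1 and Gprc5b under the 3 settings that called 0) no longer did, and 0 reversed. The cause was not tested. The labels give no replicate numbers, so no other pairing than that by line and time was tried.

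The precision is set by 1 array per combination. The spread behind each test is the disagreement between 3 h and 24 h, so a response that differs with time raises its own error. Dim genes have wider ratios and only bounds, and the scaling of the deposited intensities is unknown.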

Other observations

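Gene groups not described above gave few ratios past 1.5-fold in v-erbA cells. Of 18 tested p53 targets and apoptosis genes, Bcl2, an inhibitor of apoptosis, had the largest mean ratio. It read 301 and 427 units at 3 h and 435 and 732 units at 24 h, and its ratios in AML12 (0.48 and 0.64) were close to those in v-erbA cells (0.48 and 0.73). Pcx, which makes oxaloacetate from pyruvate, had ratios of 0.25 and 0.74. Gclc, which limits glutathione synthesis, was bright (5593 and 4766 units at 3 h, 5197 and 3499 units at 24 h) with ratios of −0.23 and −0.57. Egln3, an oxygen sensor, had −0.20 and −0.87, and the acute phase gene Saa3 −0.11 and −0.94. Of 19 tested inflammatory and acute phase genes, 11 were lower in both v-erbA pairs (57.9%, against 24.4% of all genes).

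The interferon-stimulated genes did not share a direction. Cxcl10, a chemokine, read 128 and 191 units at 3 h and 138 and 197 units at 24 h, with both RA arrays above both controls. Its AML12 ratios were −0.18 and 0.07, and the difference between lines was 0.54 ± 0.19 (limma, unadjusted p = 0.0194, adjusted p = 1.00). Mx2 had ratios of −0.22 and −0.86. Of 22 tested members, 10 were higher and 3 lower in both pairs (45.5% and 13.6%, against 25.9% and 24.4%). Of 20 tested ER stress and amino acid response genes, 10 were higher and 3 lower in both pairs (against 25.9% and 24.4% of all genes). Trib3, 1 of the higher, had ratios of 0.28 and 0.38. Of 12 tested clock genes, 3 were higher and 3 lower in both pairs, which is close to those shares of all genes.

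Among the 10092 probe sets without a single gene name, 6 were at least 2-fold higher in one v-erbA pair (1 at 3 h, 5 at 24 h), 4 lower (2 at each time), and 0 in both pairs.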
